A study of Mus musculus with 6 samples.

Results

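Expression of 10 mouse Polycomb genes was compared between T cell preparations of miR-142 knockout (KO) and wild-type (WT) mice. The genes are Ezh1, Ezh2, Eed, Suz12, Jarid2, Phf19, Mtf2, Cbx2, Cbx7 and Bmi1, and they were followed through every probe set that the annotation of the array assigns to them. This gave 31 probe sets of the 45037 tested, and 10 of 18193 annotated genes. All samples came from male C57BL/6 mice aged 10 weeks. T cells were enriched from individual spleens by negative selection, which removes other cells with antibodies and leaves the T cells untouched. The KO group held 3 mice without miR-142, a microRNA of blood cells, and the WT group held 3 wild-type littermates. The labels name no Cre driver and no cell type to which the deletion was limited, and they mention no pooling of animals. RNA from each spleen was amplified and hybridized to 1 Affymetrix 1-colour array, and the values are log2 probe-set intensities.

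Polycomb proteins keep developmental and cell cycle genes silent through modified histones. Polycomb repressive complex PRC2 methylates a lysine of histone H3 through its catalytic subunit, EZH2 or EZH1, held in a core with EED and SUZ12. Accessory proteins such as JARID2 and the Polycomb-like proteins MTF2 and PHF19 bring PRC2 to CpG-rich DNA. PRC1 contains a RING ubiquitin ligase, a PCGF protein such as BMI1 and, in its canonical form, a CBX protein such as CBX2 or CBX7 that reads the PRC2 mark. EZH2 is known as the form of dividing cells and EZH1 as the form of resting ones, and naive T cells in the spleen are mostly resting.

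The mice lack the mature products of the Mir142 locus on chromosome 11. They are shown because they define the KO group, with the seed, bases 2 to 8, in capitals (RefSeq, GRCm38.p6, plus strand, chr11:87756867-87756887 and chr11:87756903-87756925).
mmu-miR-142a-5p: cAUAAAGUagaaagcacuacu
mmu-miR-142a-3p: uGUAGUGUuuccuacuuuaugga
Target sites of these seeds in the 10 genes were not analysed here.

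Promoters were compared because Ezh2 is a textbook target of the E2F factors of the cell cycle. RefSeq windows of 300 bases, 250 before the start and 50 from it on (GRCm38.p6), were at hand for 9 of the genes in 11 windows, and Cbx2 had no entry. Both strands were searched for the E2F letters TTTCCCGC, TTTCGCGC, TTTGCCGC and TTTGGCGC. Windows of Ezh2, Phf19 and Suz12 held them, which is 3 of 11 windows, against 2.26% of 32851 windows of all genes. The windows with a match had a GC content of at least 64.3%, and among all windows that rich in GC the share was 4.22%. Ezh2 carried its match just after the start, at position 4, where position 1 is the first transcribed base. The match of Phf19 began at position -208, read on the opposite strand, and that of Suz12 at position -219. The same letters without their first T were found in the windows of the same 3 genes, and in 9.57% of all windows. These shorter letters lie within the longer ones. The CHR letters TTTGAA, known from genes of late cell cycle phases, were found in windows of Eed, Suz12, Cbx7 and Mtf2 and in 17.9% of all windows. Stretches around the E2F matches are shown with the matching letters in capitals, followed by the stretches around the start of Ezh1 and Cbx7, the genes that fell (the capitals of Cbx7 mark its CHR letters). Ezh2 runs from position -80 to 20 (chr6:47595011-47595110, minus strand), Phf19 from -240 to -181 (chr2:34914157-34914216, minus strand) and Suz12 from -250 to -191 (chr11:79992856-79992915, plus strand). Ezh1 (chr11:101226444-101226543, minus strand) and Cbx7 (chr15:79932627-79932726, minus strand) run from -80 to 20.
Ezh2: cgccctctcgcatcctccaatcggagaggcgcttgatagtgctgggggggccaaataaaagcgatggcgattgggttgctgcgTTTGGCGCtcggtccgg
Phf19: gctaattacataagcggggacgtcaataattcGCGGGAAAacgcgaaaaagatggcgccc
Suz12: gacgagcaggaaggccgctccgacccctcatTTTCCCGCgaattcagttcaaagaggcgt
Ezh1: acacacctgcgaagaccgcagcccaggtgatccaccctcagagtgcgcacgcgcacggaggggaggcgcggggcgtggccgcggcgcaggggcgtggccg
Cbx7: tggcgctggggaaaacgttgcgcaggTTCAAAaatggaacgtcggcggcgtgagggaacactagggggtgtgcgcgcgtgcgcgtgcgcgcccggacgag
The Ezh1 window held none of the letters searched. A match is a description of these letters and was not tested as a binding site.

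Array medians lay between 5.70 and 5.77. The Mir142 host transcript fell 3.98-fold, its WT mean being 7.91 ± 0.23 (SD, n = 3) and its KO mean 5.92 ± 0.05 (limma adjusted p = 6.6e-05). Whether its probe set lies in the deleted part is not known here. All 11 measured T cell markers, among them Cd3e, Cd4 and Cd8a, fell in KO, and their mean ranged from 12.17 to 12.18 on WT arrays and from 9.34 to 10.79 on KO arrays. All 10 measured neutrophil markers and 11 of 12 markers of eosinophils, basophils and mast cells rose, with means of 6.43 to 7.69 and 5.94 to 6.05 in WT against 11.14 to 13.60 and 9.86 to 10.38 in KO. All 7 measured erythroid markers rose too, from means of 7.22 to 7.63 to means of 9.94 to 11.08. Of 15 proliferation genes, such as Mki67 and Top2a, 15 rose, with means of 9.18 to 9.31 in WT and 11.09 to 11.55 in KO. These shifts accompany every result below, and their part in it was not tested. In such bulk preparations fewer cells of a type and less RNA per cell cannot be told apart.

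Among the Polycomb genes, the catalytic subunits of PRC2 changed in opposite directions. Ezh2 rose 2.86-fold in KO and Ezh1 fell 2.00-fold. Cbx7, a chromodomain subunit of PRC1, fell 2.52-fold. Mtf2 rose at 3 of its 6 probe sets, but not at the brightest one. The remaining core and accessory genes, Eed, Jarid2, Phf19, Cbx2 and Bmi1, did not pass the threshold at any probe set, and Suz12 passed it downward at 1 of 6. Rose and fell stand for a limma adjusted p below 0.05 over all probe sets.

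The share of these genes past the threshold was near that of all genes, and the difference in shares was not tested. The 10 genes were bright, with a mean level of 9.61 in WT, against 7.18 to 7.21 for all genes on the WT arrays. When only probe sets at or above the median mean level were tested, 5702 rose and 5959 fell, against 6242 and 6986 among all. The share past the threshold was thus higher among bright probe sets, and the part of the level was not tested. At the brightest probe set of each gene, 1 of 10 rose and 2 fell, 30% in all, against 37.2% of all genes, of which 18.6% rose and 18.6% fell. Of the 31 probe sets 4 rose and 5 fell, 29.0%, against 29.4% of all probe sets, of which 13.9% rose and 15.5% fell. The KO and WT values did not overlap at 15 of the 31, 48.4%, with KO above WT at 7 and below at 8. This compares with 45.9% of all probe sets, 18.5% with KO above and 27.4% with KO below, and with 53.8% of all genes at their brightest probe set, where 7 of the 10 Polycomb genes had groups that did not overlap. The median difference at the brightest probe sets, KO minus WT, was -0.05 for the 10 genes and -0.06 for all genes. Each array was also scaled to its hybridization controls, the spiked bioB, bioC, bioD and cre transcripts. After this scaling 88.1% of all changed probe sets were higher in KO against 47.2% as deposited, and 5 of the 10 genes rose while 2 fell.

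**Figure D1:**
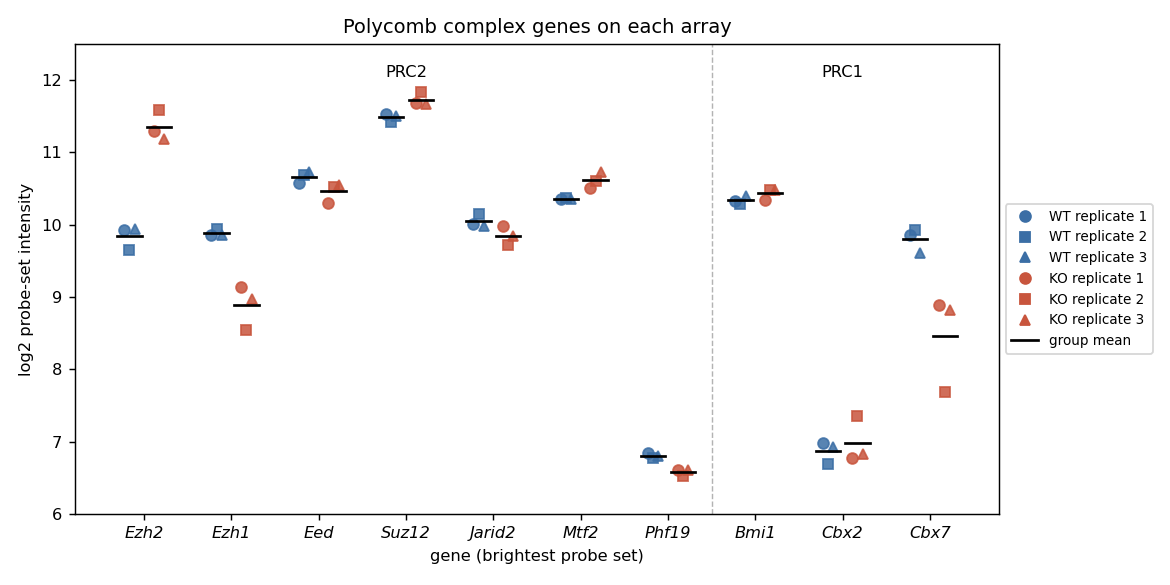
Log2 probe-set intensity (vertical axis) of the 10 Polycomb genes at their brightest probe sets (horizontal axis) on each of the 6 arrays. Blue symbols are WT, red symbols KO, the symbol shape gives the replicate and black bars are group means. Ezh2 lies between 9.66 and 9.94 in WT and between 11.18 and 11.58 in KO, and Ezh1 and Cbx7 are lower on every KO array, with KO replicate 2 lowest.

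Ezh2, the methyltransferase subunit of PRC2 in dividing cells, was measured by 1 probe set, 1416544_at. Its log2 intensity was 9.92, 9.66 and 9.94 in WT replicates 1 to 3 and 11.30, 11.58 and 11.18 in KO replicates 1 to 3. The lowest KO value exceeded the highest WT value by more than 1 log2 unit. The difference was 1.51 ± 0.13 (SE, n = 3 per group; 95% interval 1.20 to 1.83; limma adjusted p = 0.000228). Leaving out single arrays gave 1.40 to 1.60. Among KO arrays, Ezh2 was highest in replicate 2 and lowest in replicate 3, and so was the mean of the proliferation genes, at 11.22, 11.55 and 11.09 in KO replicates 1 to 3. The value of Ezh2 minus this mean was 0.59 ± 0.10 (SD, n = 3) in WT and 0.07 ± 0.03 in KO, so that Ezh2 rose less than the proliferation genes did on average. Single proliferation genes differed by 0.58 to 2.88, and Ezh2 lay within this range. The order of the KO arrays was not particular to the proliferation genes. Erythroid markers had it too, with means of 10.42, 11.08 and 9.94 in KO replicates 1 to 3, as did megakaryocyte and B cell markers.

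Ezh1, the paralogous methyltransferase of resting cells, had 4 probe sets. At the brightest, 1449023_a_at, WT arrays read 9.86, 9.93 and 9.86 and KO arrays 9.14, 8.54 and 8.98. The KO values all lay below the WT values, and KO replicate 2 was the lowest. The difference was -0.998 ± 0.154 (SE, n = 3 per group; 95% interval -1.36 to -0.64; limma adjusted p = 0.00262), and it was -0.82 without KO replicate 2. A second probe set of Ezh1, 1418290_a_at, fell by 0.53 ± 0.11 (limma adjusted p = 0.0109), a call lost under hybridization-control scaling, where the brightest one still fell (-0.63, limma adjusted p = 0.0244). The other two Ezh1 probe sets were dim, with levels of 3.57 and 4.31 in WT, and differed by -0.14 and 0.08 with limma adjusted p = 0.361 and 0.706. The mean of all 4 probe sets differed by -0.40 (limma adjusted p = 0.0148).

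The balance of both methyltransferases shifted on every KO array. Ezh2 minus Ezh1, taken within an array at the brightest probe sets, was 0.06, -0.28 and 0.08 in WT and 2.15, 3.04 and 2.21 in KO. Only the change of this value between genotypes can be read, since the probe sets have different affinities. The change was 2.51, a 5.71-fold shift of the ratio, and 1.91 with the mean of each gene's probe sets. All KO arrays lay above all WT arrays. This separation follows from that of Ezh2 and Ezh1 taken singly and is no result of its own. In an exact permutation test over the 20 ways to choose 3 of the 6 arrays, two-sided, p = 0.10, which is the smallest p that 3 against 3 allows (adjusted p = 0.10 over 4 gene pairs). Scaling of an array cancels in such a value, and it stayed between 2.23 and 2.67 without each array in turn. Ezh2 minus Jarid2 changed by 1.72, from -0.21 ± 0.25 (SD, n = 3) to 1.51 ± 0.31, with the same exact permutation p of 0.10.

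The core partners of the methyltransferases did not pass the threshold at their brightest probe sets. Eed, the subunit that binds the methylated histone and activates the enzyme, read 10.58, 10.68 and 10.73 in WT and 10.31, 10.53 and 10.55 in KO at 1448653_at. The groups did not overlap, by a narrow margin, and the difference of -0.20 had a 95% interval of -0.44 to 0.03 (limma adjusted p = 0.171). Its dim second probe set differed by -0.18 with overlapping groups. Suz12, the scaffold subunit of the core, read 11.53, 11.42 and 11.51 in WT and 11.69, 11.83 and 11.67 in KO at its brightest probe set, 1420021_s_at. All KO values were above all WT values there, with a difference of 0.24 (95% interval 0.04 to 0.45; limma adjusted p = 0.0763). It passed under hybridization-control scaling (0.61, limma adjusted p = 0.00184) and with an intensity trend and robust fitting (limma adjusted p = 0.0382), while the mean of its 6 probe sets differed by 0.021. The next brightest probe sets of Suz12 differed by 0.28 and 0.21, and the dimmer 1420020_at and 1449661_at by -0.087 and 0.00. In contrast 1420022_s_at of Suz12 fell by 0.53 ± 0.17 (limma adjusted p = 0.0481), but the call did not survive leaving out any one array except KO replicate 2, nor centring on array medians or scaling to the hybridization controls. The probe sets of Suz12 thus disagreed in sign, and the suffix _s_at marks probe sets that can match more than 1 transcript.

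Jarid2, which links PRC2 to chromatin, had 3 probe sets, and KO and WT values overlapped at each. At 1422698_s_at it read 10.01, 10.15 and 9.98 in WT and 9.98, 9.71 and 9.84 in KO, a difference of -0.20 (95% interval -0.44 to 0.04; limma adjusted p = 0.191). The other two differed by -0.13 and -0.04. Eed and Jarid2 at their brightest probe sets changed sign, to 0.16 and 0.17, under hybridization-control scaling.

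Polycomb-like proteins have a Tudor domain and direct PRC2 to its sites. Of their genes, the members Mtf2 and Phf19 did not pass the threshold at their brightest probe sets. Mtf2, also called Pcl2, was the member with the most probe sets that rose. At 1418514_at it read 9.74, 9.75 and 9.74 in WT and 10.19, 10.08 and 10.13 in KO, and it rose by 0.39 ± 0.08 (SE, n = 3 per group; limma adjusted p = 0.00848). At 1418515_at Mtf2 rose by 0.49 ± 0.09 and at 1449115_at by 0.55 ± 0.12, where the limma adjusted p went above 0.05 if WT replicate 1, WT replicate 2 or KO replicate 3 was left out. At its brightest probe set, 1418516_at, Mtf2 read 10.35, 10.36 and 10.36 in WT and 10.51, 10.61 and 10.73 in KO. The groups did not overlap, but the difference of 0.26 (95% interval 0.05 to 0.46) had a limma adjusted p = 0.0672. The dim probe sets 1445151_at and 1459811_at of Mtf2 differed by 0.06 and 0.27 with overlapping groups. The mean of its 6 probe sets was higher by 0.34 (limma adjusted p = 0.00714). All 6 differences of Mtf2 were above 0, from 0.06 to 0.55.

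Phf19, also called Pcl3, had 2 probe sets with opposite signs. The brighter, 1431857_at, read 6.84, 6.77 and 6.80 in WT and 6.60, 6.53 and 6.61 in KO, a difference of -0.23 (95% interval -0.41 to -0.04; limma adjusted p = 0.0696) with groups that did not overlap. The dimmer, 1427920_at, read 4.87, 5.26 and 4.82 in WT and 5.49, 5.72 and 5.22 in KO, a difference of 0.49 (limma adjusted p = 0.0639) with overlapping groups. No direction can be given for Phf19. Phf1, the third Polycomb-like gene, belongs to the wider list and fell 2.22-fold at its only probe set, with 8.87, 9.0 and 8.72 in WT and 8.01, 7.31 and 7.83 in KO (limma adjusted p = 0.00295). Phf19 minus Mtf2 within an array changed by -0.48, from -3.55 ± 0.04 (SD, n = 3) to -4.03 ± 0.12, at an exact permutation p of 0.10. With the mean of each gene's probe sets the change was -0.20, and it carries the disagreement between the probe sets of Phf19.

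Cbx7, which binds the PRC2 mark and is best known as a chromodomain protein of stem cells, fell. At 1433557_at it read 9.86, 9.93 and 9.60 in WT and 8.89, 7.68 and 8.81 in KO. The groups did not overlap, and KO replicate 2 stood more than 1 log2 unit below the other KO arrays. The difference was -1.33 ± 0.31 (SE, n = 3 per group; 95% interval -2.06 to -0.61; limma adjusted p = 0.0156), and -0.94 without KO replicate 2. The call was lost without WT replicate 1 (limma adjusted p = 0.059) or WT replicate 2 (0.0598). At 1420039_s_at Cbx7 fell by 0.71 ± 0.18 (limma adjusted p = 0.0214), which no longer passed if WT replicate 1 or 3 was left out or if arrays were scaled to the hybridization controls. At 1449713_at it differed by -0.32 (limma adjusted p = 0.0625), again with every KO value below every WT value.

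Cbx2, a chromodomain paralog with a strong capacity to compact chromatin, read 6.98, 6.69 and 6.93 in WT and 6.77, 7.35 and 6.83 in KO at 1434116_at. The groups overlapped, and KO replicate 2 was the highest array. The difference of 0.12 had a 95% interval of -0.28 to 0.52 (limma adjusted p = 0.654), and it turned to -0.069 without KO replicate 2. Under hybridization-control scaling Cbx2 rose by 0.48 (limma adjusted p = 0.0278). Its second probe set was dim, at 4.10 in WT and 4.12 in KO. Cbx2 minus Cbx7 rose within arrays from -2.88, -3.24 and -2.68 in WT to -2.13, -0.33 and -1.99 in KO. This change of 1.45 had an exact permutation p of 0.10, the smallest possible, and it was 0.87 without KO replicate 2.

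Bmi1, the PCGF subunit that represses the Cdkn2a locus and sustains stem cells, read 10.32, 10.29 and 10.40 in WT and 10.34, 10.48 and 10.48 in KO at 1417493_at. The groups overlapped, and the difference of 0.10 had a 95% interval of -0.11 to 0.30 (limma adjusted p = 0.448). Its other probe set gave 0.10 too, with an interval of -0.12 to 0.31. Under hybridization-control scaling Bmi1 rose by 0.46 (limma adjusted p = 0.0109).

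**Figure D2:**
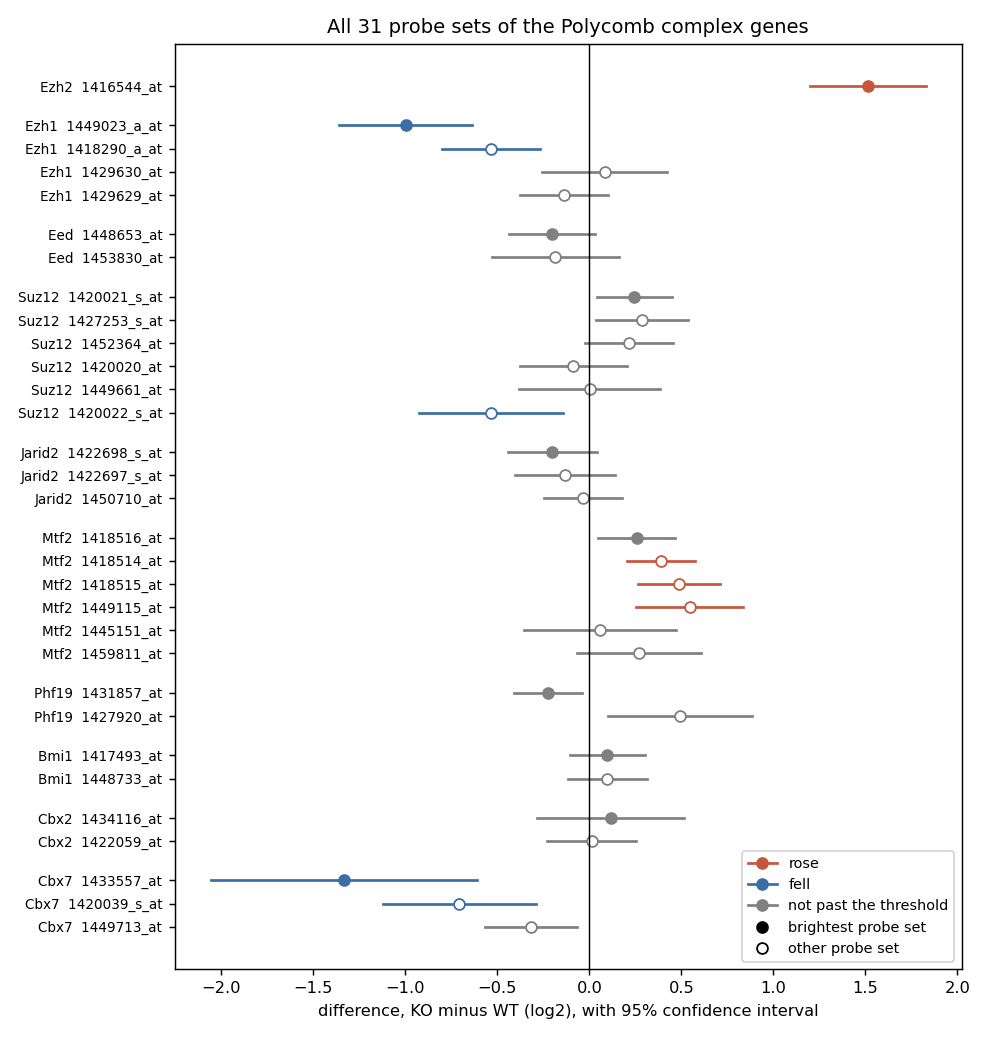
Difference between KO and WT (horizontal axis, log2, with 95% confidence intervals from limma) for all 31 probe sets, grouped by gene (vertical axis). Red marks probe sets that rose, blue those that fell and grey those not past the threshold, and filled circles are each gene's brightest probe set. The 6 probe sets of Mtf2 all lie above 0, the 3 of Cbx7 all lie below 0, and Suz12 and Phf19 have probe sets on both sides.

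Ezh1, Cbx7 and the T cell markers were all lowest on the same KO array. The mean of the 11 T cell markers was 10.60, 9.34 and 10.79 in KO replicates 1 to 3; the order of replicates 1 and 3 was the reverse for Ezh1 and Cbx7. Ezh1 minus the T cell mean was -2.29 ± 0.05 (SD, n = 3) in WT and -1.36 ± 0.51 in KO, and Cbx7 minus the T cell mean was -2.38 ± 0.18 in WT and -1.78 ± 0.17 in KO. Both genes therefore fell less than the T cell markers did on average. A lowest value on KO replicate 2 was not particular to T cell markers. Lists that rose had it too: the neutrophil mean was 13.60, 11.14 and 11.84 in KO replicates 1 to 3, and the progenitor mean 9.49, 9.18 and 9.41. The means of eosinophil, basophil and mast cell markers, of monocyte and macrophage markers and of NK cell markers were lowest there as well. The erythroid mean was highest there, 11.08 against 10.42 and 9.94, as were the proliferation, megakaryocyte and B cell means. The part of the cell composition in these differences was not tested.

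**Figure D3:**
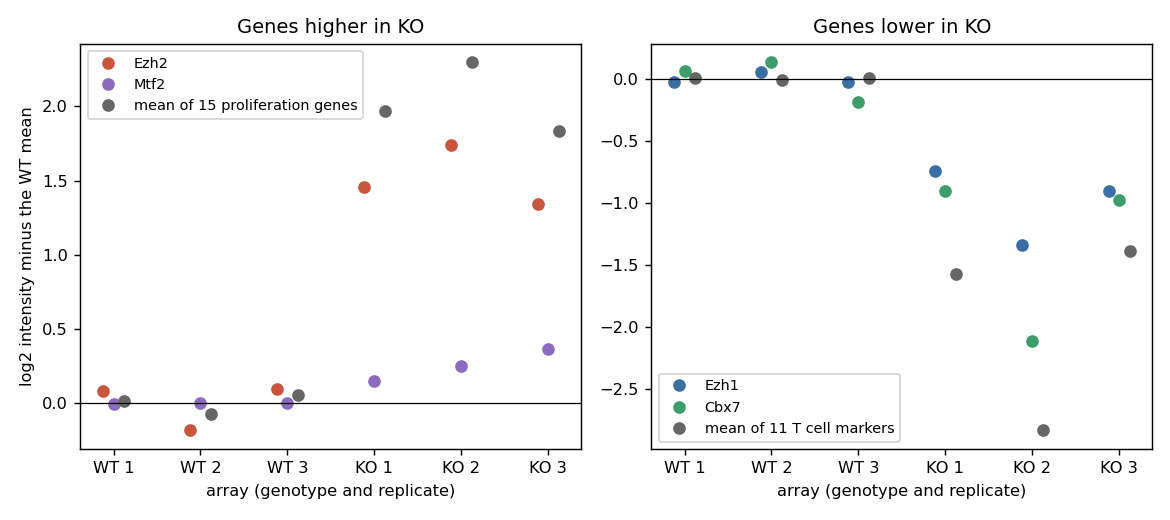
Log2 intensity minus the WT mean (vertical axis) on each array (horizontal axis) for Ezh2 and Mtf2 with the mean of 15 proliferation genes (left), and for Ezh1 and Cbx7 with the mean of 11 T cell markers (right). Each point is 1 array. KO replicate 2 has the highest Ezh2 and proliferation values and the lowest Ezh1, Cbx7 and T cell marker values.

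The genes whose pattern over the 6 arrays was most like that of Ezh2 were Atpif1, Siva1, Asf1b, Lsm2 and Cdkn1a. Likeness was the root mean square distance between values after each gene's own mean was taken off, and it was 0.05 to 0.07 log2 units for these 5. Their differences lay between 1.42 for Asf1b and 1.58 for Siva1. For Cbx7 the nearest genes were Arhgap45, Gimap3, Fyb, Itgb7 and Gramd1a, at distances of 0.06 to 0.12, with differences from -1.21 for Itgb7 to -1.50 for Gramd1a. With 2 genotypes these distances mostly reflect the size of the difference between groups.

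Further genes of both complexes changed in either direction. Of 7 other PRC2 genes 2 rose and 2 fell, 57.1% against 37.2% of all genes. Their median difference was 0.17 against -0.06 for all genes. This list was bright, with a mean level of 9.61 in WT, against 7.18 to 7.21 for all genes on the WT arrays. The part of the level in this share was not tested. The number that rose was 1 without any 1 of the 6 arrays, and under hybridization-control scaling 4 rose and 1 fell. Lcor, whose locus encodes a PRC2 accessory protein, rose by 0.57, and passed at 2 of its 4 probe sets. The histone-binding subunit Rbbp7 rose by 0.26, at 1 of its 2 probe sets, a call lost without any 1 of the 6 arrays. Phf1 fell by 1.15, and the DNA-binding accessory subunit Aebp2 fell by 0.70, at all 5 of its probe sets. Phf1 fell under hybridization-control scaling too, while the call of Aebp2 was lost.

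Of 22 measured genes of PRC1 beyond Bmi1, Cbx2 and Cbx7, 7 rose and 5 fell, 54.5% against 37.2% of all genes. Their median difference was 0.11. This list too was brighter than all genes, with a mean level of 8.72 in WT, and the part of the level in this share was not tested. The number that rose was 3 without WT replicate 1 or 2. Scaling to the hybridization controls gave 14 that rose and 1 that fell. Pcgf3, a PCGF protein of variant PRC1 and so a relative of Bmi1, rose 2.56-fold, from 7.65, 7.89 and 7.78 in WT to 9.10, 9.18 and 9.12 in KO (limma adjusted p = 8.81e-05), at 1 of its 3 probe sets. Kdm2b, the CpG-binding demethylase of variant PRC1, rose by 0.74, and E2f6 and Bcorl1, components or partners of variant complexes, by 0.54 and 0.48. Bcorl1 rose at 1 of its 2 probe sets. The polyhomeotic gene Phc3 fell 2.21-fold, from 10.11, 10.26 and 10.07 to 9.08, 8.69 and 9.24 (limma adjusted p = 0.00119), at 1 of its 2 probe sets. Cbx8, a chromodomain paralog of Cbx7, fell by 0.80, at 1 of its 2 probe sets, and Pcgf1 by 0.60, at its only one. The ubiquitin ligase Rnf2 fell by 0.48, at 2 of its 5 probe sets, and, named after its values were seen, Phc2 by 0.40. Also named after their values were seen, Scmh1, L3mbtl2 and Cbx6, another paralog of Cbx7, rose by 0.44, 0.39 and 0.34. These rises no longer passed without WT replicate 1 or WT replicate 2. The call of Scmh1 was also lost without KO replicate 1 or KO replicate 2, and that of Cbx6 without any KO array. Scmh1 rose at 1 of its 3 probe sets. Under hybridization-control scaling Phc3 still fell, whereas the calls of Cbx8, Pcgf1, Rnf2 and Phc2 were lost. E2f6 no longer passed if any WT array or KO replicate 3 was left out, Pcgf1 if WT replicate 2 was, and Phc2 if any array but WT replicate 2 or KO replicate 2 was.

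Of 12 genes whose products oppose Polycomb silencing 4 fell and 1 rose, 41.7% against 37.2% of all genes and so near the background. This list was bright, with a mean level of 10.00 in WT, and the part of the level in this share was not tested. Its median difference of -0.27 turned to 0.093 under hybridization-control scaling. The histone methyltransferases Kmt2c and Kmt2d fell by 0.88 and 0.79, Kdm6b, which removes the PRC2 mark, by 0.60, and the chromatin remodelling subunit Arid1a by 0.53. Smarcb1, another subunit of that remodeller, rose by 0.56, at 1 of its 3 probe sets. Kmt2c fell at all 4 of its probe sets, Kdm6b at 2 of 3, and Kmt2d and Arid1a each at 1 of 2. Single arrays mattered here: 1 enzyme fell without WT replicate 1 or 2, and 2 fell without WT replicate 3. In addition, under hybridization-control scaling 1 fell, Kmt2c, and 3 rose.

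Of 35 measured Hox and Ink4 genes, classical targets of Polycomb silencing, 5 rose and 2 fell, 20% against 37.2% of all genes, and their median difference was 0.00. This list was dim, with a mean level of 4.96 in WT, against 7.18 to 7.21 for all genes on the WT arrays. The part of the low level in this share and median was not tested. The number that rose was 3 without WT replicate 1, WT replicate 2 or KO replicate 3, the number that fell was 1 without WT replicate 1, WT replicate 2 or KO replicate 1. Scaling to the hybridization controls gave 16 that rose, and the genes that fell no longer passed. Hoxa9, a homeobox gene of blood progenitors, rose 11.7-fold, from 6.36, 6.28 and 6.68 in WT to 9.84, 9.79 and 10.32 in KO (limma adjusted p = 2.77e-05), at both of its probe sets. Hoxa10 rose by 1.02 from a dim level of 3.72 in WT, and Hoxb2, Hoxa7 and, named after its values were seen, Hoxa3 rose by 0.60, 0.49 and 0.35. Hoxb2 and Hoxa3 were dim too, at 5.61 and 5.56 in WT, while Hoxa7 read 7.08. Hoxa3 rose at 2 of its 4 probe sets and Hoxa10 at 1 of its 2. Hoxa7 no longer passed if any array but WT replicate 3 or KO replicate 2 was left out, and Hoxa3 if any WT array or KO replicate 3 was. Hoxd13 and Hoxa11 fell by 0.47 and 0.40 from dim levels of 5.49 and 4.81 in WT, Hoxd13 at 1 of its 2 probe sets. These calls were lost under hybridization-control scaling and, for Hoxa11, without WT replicate 1, WT replicate 2 or KO replicate 1. Progenitor markers moved with Hoxa9: all 7 measured ones, Hoxa9 itself, Cd34 and Meis1 among them, rose, with means of 6.24 to 6.28 in WT and 9.18 to 9.49 in KO. Kit and Gata2 stand both in this list and in that of eosinophils, basophils and mast cells. Cdkn2a, the cell cycle inhibitor locus held silent by Bmi1 and Ezh2, read 4.43, 4.40 and 4.57 in WT and 4.19, 5.75 and 4.44 in KO. KO replicate 2 stood apart, the groups overlapped, and the difference of 0.33 had a limma adjusted p = 0.549. Cdkn2b differed by 0.00.

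**Figure D4:**
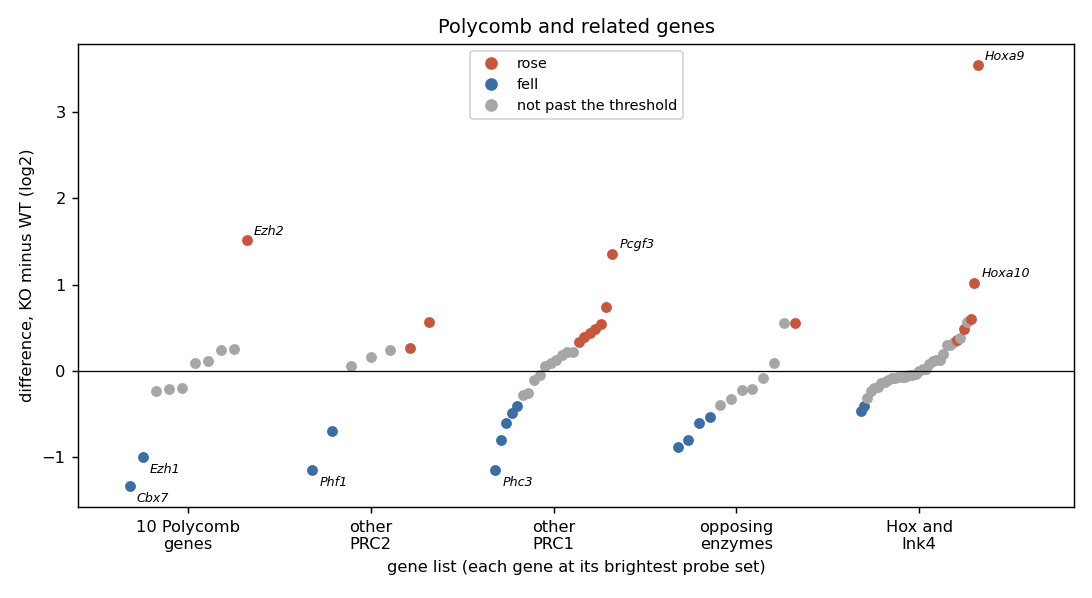
Difference between KO and WT (vertical axis, log2) for the 10 Polycomb genes and the genes of 4 related lists (horizontal axis), each gene as 1 point at its brightest probe set. Red points rose, blue points fell and grey points were not past the threshold. Hoxa9 at 3.54 lies farthest from 0, and Ezh2, Pcgf3, Hoxa10, Phf1, Phc3, Ezh1 and Cbx7 are the other named genes with differences of about 1 or more.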

How the data were processed

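The values are log2 probe-set intensities as the authors deposited them. Per the submitters' processing notes they came from RMA, whose version is not given, which corrects background, normalizes by quantiles and summarises probe sets. They were used without filter, pseudocount or detection calls. Of 45101 probe sets 64 controls were left out, and the platform annotation gave 1 gene for 34945. All 31 probe sets of the members matched the GRCm38.p6 gene table by Entrez ID.

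With limma 3.58.1 in R 4.3.3, genotype was fitted over all 45037 probe sets (lmFit, eBayes, two-sided, Benjamini-Hochberg). A gene's main value is its brightest probe set over the 6 arrays, or 3 per group. Differences are KO minus WT with moderated SE. Gene pairs were tested by exact permutation. Named were all 10 members, in each other list up to 4 genes per direction with the largest differences past the threshold, and the 5 genes nearest in pattern to the member with the largest rise and the largest fall. The members, lists and motifs came from general knowledge, and they and the alternatives were chosen with earlier results of these data known. The lists held 7 other PRC2 genes, 24 other PRC1 genes, 12 opposing enzymes, 41 Hox and Ink4 genes and cell type markers. Genes without a probe set of their own in the annotation were not analysed here. Of the marker lists not described in the results, 7 of 7 monocyte and macrophage markers, 1 of 7 B cell markers and 4 of 5 megakaryocyte markers rose, and 3 of 5 NK cell markers fell. The fit was tested on simulated data. Replicates are separate mice, and their number limits the precision.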

Additional observations from a re-analysis of the deposited data

How the results depend on the processing

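Ezh2 rose and Ezh1 fell under each of the 14 alternatives run for the brightest probe set or the gene mean, at differences of 1.40 to 1.88 and -1.13 to -0.40. Replicate numbers did not pair the samples (correlations of deviations between arrays of the same number were 0.10, -0.24 and -0.20, and not every array correlated best with its own number). With the replicate number as a block the members' calls at the brightest probe sets did not change (Ezh2 limma adjusted p = 0.00334, Ezh1 0.0106, Cbx7 0.0312). Calls among all probe sets went from 6242 higher and 6986 lower to 5296 and 5117, other PRC2 genes that rose to 1, other PRC1 genes that rose to 3, opposing enzymes that rose to 2 and Hox and Ink4 genes that fell to 1. Pair values were the same, with an exact permutation p of 0.25 within pairs, the smallest p that 3 pairs of arrays allow.

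Scaling to the hybridization controls, which averaged 10.21 in WT and 9.85 in KO, moved the median difference of all probe sets from -0.08 to 0.29. Members that rose went to 5 (13 probe sets, with 2 that fell): Suz12 at 0.61, Cbx2 at 0.48, Bmi1 at 0.46 and Mtf2 at 0.62 passed the threshold, and Eed (0.16), Jarid2 (0.17) and Phf19 (0.14) turned sign. The related lists went to 4 rose and 1 fell (other PRC2), 14 and 1 (other PRC1), 3 and 1 (opposing enzymes) and 16 and 0 (Hox and Ink4, of which 0 fell by limma). The cause was not tested.

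The number of members that rose was 2 without dim probe sets, with a trend and robust fitting, with array weights and with gene means, and 3 (8 probe sets) at an adjusted p below 0.10. Mtf2 passed without dim probe sets (0.26), with array weights (0.28) and as a gene mean (0.34), Suz12 with a trend (0.24) and Phf19 with repeated quantile normalization (-0.28), whereas the gene mean of Phf19 was 0.13. Without _s_at and _x_at probe sets 3 member probe sets fell. Other PRC2 genes that rose went to 1 with median centring or repeated quantile normalization. Opposing enzymes that rose went to 2 without dim probe sets, with a trend, with gene means and at 0.10, and Hox and Ink4 genes to 3 rose and 0 fell without dim probe sets, where fewer genes were tested. At further probe sets Ezh1 differed by -0.14 and 0.084, Suz12 by -0.087 and -0.53, Phf19 by 0.49, Cbx7 by -0.32 and Mtf2 by 0.39, 0.49 and 0.55.

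With single arrays left out, members that rose stayed at 1 and members that fell ranged from 1 to 2 (probe sets 3 to 4 and 2 to 5). Other PRC2 genes ranged from 1 to 1 that rose, other PRC1 genes from 3 to 6, opposing enzymes from 1 to 2 and from 1 to 5 that fell, and Hox and Ink4 genes from 3 to 5 and from 1 to 3. Cbx7 ranged from -1.55 to -0.94, losing its call without WT replicate 1 (-1.30) or 2 (-1.27), and Cbx2 from -0.069 to 0.22.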
